A study of Juglans cathayensis with 6 samples.

Results

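The genes of chlorophyll and carotenoid metabolism are described here in the husk of *Juglans cathayensis*, the Chinese walnut. Members were the assembled genes whose KEGG pathway text names porphyrin metabolism or carotenoid biosynthesis, without those described as abscisic acid, 9-cis-epoxycarotenoid, cytochrome P450 or UDP-glycosyltransferase proteins. The rule took 167 of the 39234 genes in the table, 107 from the porphyrin pathway and 60 from the carotenoid pathway, and left out 12. Descriptions sorted 71 members as enzymes of the pathways and 96 as other proteins. Most of the 96 carry a pathway assignment that their own description does not repeat. Exceptions include xanthoxin dehydrogenase-like, abscisate beta-glucosyltransferase-like and frataxin genes, whose descriptions do repeat it.

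Husk RNA was sequenced from 2 varieties. In one the fresh cut surface is recorded as brown (brown, 3 libraries), and in the other as white (white, 3 libraries). All 6 libraries carry a time label of 35 days without a stated starting event, and the labels record no special treatment. Each colour is 1 variety, so colour and variety cannot be told apart, and no label states that libraries came from separate trees, so the spread behind the p-values is that of these libraries alone and could be technical.

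Chlorophyll and heme are both tetrapyrroles, built in plastids from glutamate along a shared trunk that divides where magnesium or iron is inserted into the ring. Carotenoids are made in the same organelles from geranylgeranyl diphosphate. They protect the photosynthetic apparatus, colour fruits, and are the source of abscisic acid, strigolactones and volatile apocarotenoids. Geranylgeranyl diphosphate also supplies the phytol tail of chlorophyll, so the pathways draw on a common precursor.

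Values are TPM, a relative abundance corrected for gene length, and triplets are given in the order of replicates 1, 2 and 3. Fold changes are log2 of brown over white, computed on log2(TPM + 1), a scale on which changes of low genes appear smaller than they are. A gene is said to have risen or fallen in brown husk where limma gave an adjusted p under 0.05 (Benjamini-Hochberg over all genes tested). Across the 37829 tested genes the median log2 fold change was 0.19 on TPM as deposited, 0.05 after scaling with TMM factors and -0.01 after quantile normalization. It was positive for 24325 of these genes as deposited, 20273 after TMM scaling and 18515 after quantile normalization. Counts of positive values below are to be read beside these.

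White replicate 2 stood apart from the other libraries. Between 34826 and 35240 genes reached 1 TPM in brown libraries, against 33949, 28349 and 33146 in white libraries. The 100 most abundant genes held at most 26.5% of all TPM in brown libraries, against 24.7, 34.0 and 27.2% in white libraries. The 49 genes of photosystems, light harvesting and the Rubisco small subunit, which mark photosynthetic cells, summed to 11161, 5682 and 9453 TPM in brown, against 8187, 10119 and 9388 TPM in white. None of these 49 genes passed the threshold, 6 had an unadjusted p under 0.05, and their median log2 fold change was -0.10. In bulk tissue, fewer cells of a type and less RNA per cell cannot be told apart.

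Of the 167 members, 158 reached 1 TPM in at least 3 libraries and were tested. In brown husk 3 members rose (1.9%, against 3.83% of all tested genes) and 5 fell (3.16%, against 2.17% of all). The median log2 fold change of the tested members was 0.16. An unadjusted p under 0.05 was given to 44 members (27.8%), against 21.5% of all tested genes. The members' TPM summed to 3398, 2953 and 3190 in brown, against 3131, 2851 and 3074 in white and the groups overlapped.

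The 8 calls were sensitive to single libraries. None passed in all 6 fits that each left out 1 library. In the fit without brown replicate 1 there were 2 members that rose and 3 that fell, and without brown replicate 2 there were 0 and 1. Leaving out brown replicate 3 or white replicate 3 gave no call in either direction. Without white replicate 1 there were 2 that rose and 1 that fell, and without white replicate 2 there were 6 and 6. Without the mean-variance trend 3 of the 8 calls passed, those of the pheophorbide a oxygenase, MYB6-like and myb-related 308-like genes.

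**Figure D1:**
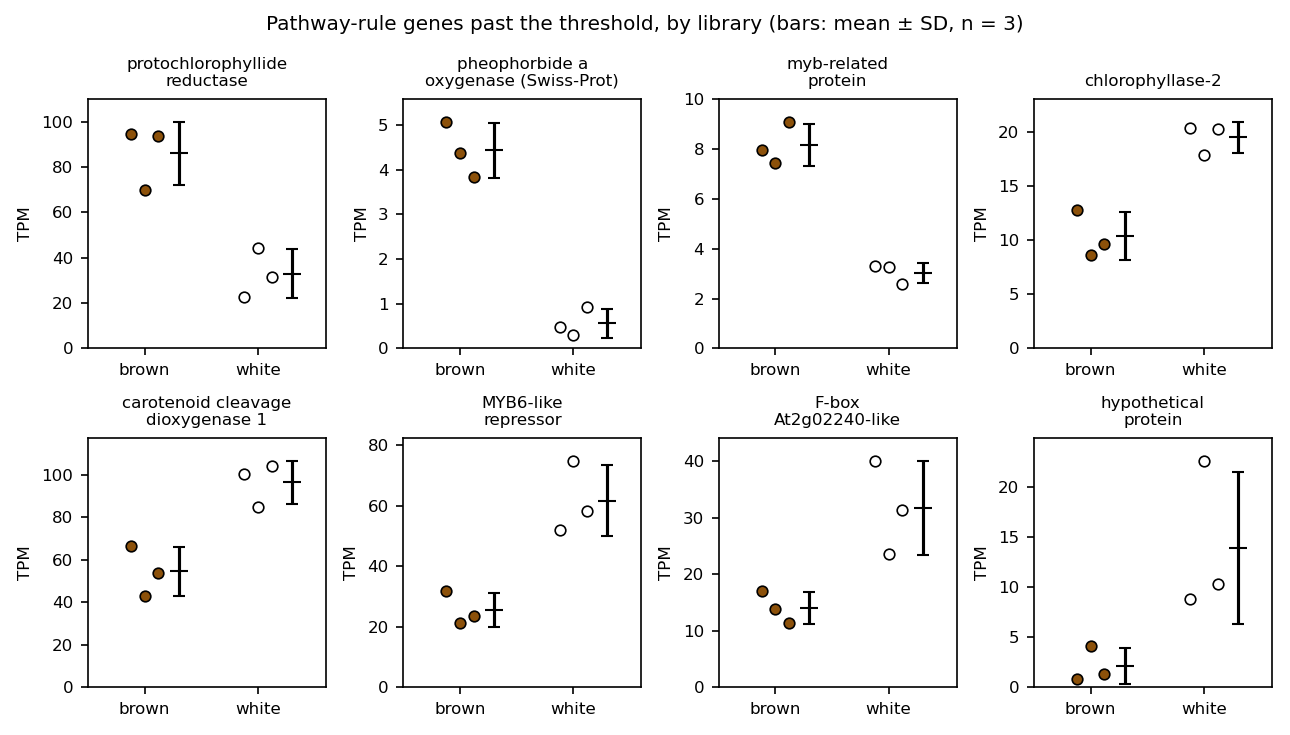
TPM of the 8 members past the threshold in each library (points, brown left, white right; bars, mean ± SD, n = 3; every axis starts at 0). The 3 genes that rose and the 5 that fell in brown husk all had groups that did not overlap. They were selected by the difference between these groups, so this order is no separate result. Over all tested genes, 20.2% had brown above white without overlap and 8.85% had brown below.

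In the shared trunk from glutamate to protoporphyrin, 0 of 18 tested genes passed the threshold. Their median log2 fold change was 0.06 as deposited, and it was negative after TMM scaling (-0.12) and quantile normalization (-0.02). The 19 trunk genes summed to 302, 303 and 305 TPM in brown, against 264, 282 and 269 TPM in white. All brown sums lay above all white ones on TPM as deposited, the only scale on which sums were taken. Of the 18 tested values 12 were positive as deposited, 6 after TMM scaling and 8 after quantile normalization. The sum includes a cytosolic glutamate-tRNA ligase, which serves translation, and without that gene the groups overlapped.

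The gene nearest to the threshold in the trunk encoded glutamyl-tRNA reductase, which catalyses the first committed and strongly regulated step of tetrapyrrole synthesis. The gene, TRINITY_DN13713_c0_g1, had 27.7, 25.3 and 26.8 TPM in brown, against 16.2, 18.3 and 17.9 TPM in white (log2 fold change 0.58 ± 0.14 SE, adjusted p = 0.0528 with limma). Its groups did not overlap. A cytosolic glutamate-tRNA ligase had 29.0, 36.6 and 28.9 TPM in brown, against 22.02, 12.5 and 19.9 TPM in white (adjusted p = 0.0965 with limma). This ligase charges the tRNA used in translation, whereas the plastid form that feeds tetrapyrrole synthesis had 17.5, 17.2 and 16.5 TPM in brown, against 14.4, 15.01 and 14.9 TPM in white (log2 fold change 0.20).

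None of the steps that follow passed the threshold, and their log2 fold changes ran from -1.16 for a low porphobilinogen deaminase gene to 0.996 for a low uroporphyrinogen decarboxylase gene. Glutamate-1-semialdehyde aminomutase, which forms 5-aminolevulinic acid, had 35.4, 38.7 and 36.2 TPM in brown, against 28.8, 48.4 and 36.7 TPM in white. Aminolevulinic acid dehydratase, which joins a pair of these molecules into a pyrrole, had 54.0, 52.7 and 54.3 TPM in brown, against 47.7, 54.5 and 55.5 TPM in white. The groups overlapped for both genes. The leading uroporphyrinogen decarboxylase, coproporphyrinogen oxidase and mitochondrial protoporphyrinogen oxidase genes also overlapped, with log2 fold changes of 0.02, 0.22 and 0.13. The first and the last of these were negative after TMM scaling, at -0.15 and -0.04.

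The magnesium branch, which turns protoporphyrin into chlorophyll, held the most abundant enzyme gene of the pathways by mean TPM over all libraries. It also held 1 of the 2 enzyme genes that rose. Of its 15 tested genes 1 rose and 0 fell. Their median log2 fold change was 0.37 (0.21 after TMM scaling, 0.15 after quantile normalization), 13 of 15 values were positive (11 after either scaling), and 7 genes had every brown library above every white one. Over all tested genes, 20.2% showed that order. One of the 15 is described as a cyclase only by Swiss-Prot, and its main description names a basic leucine zipper factor. The branch summed to 707, 523 and 647 TPM in brown (626 ± 93.6 SD, n = 3), against 402, 508 and 430 TPM in white (446 ± 55.0 SD, n = 3). Brown replicate 2, the lowest brown library, lay just above white replicate 2, the highest white one. Without the most abundant gene the sums overlapped, at 427, 311 and 404 TPM in brown, against 243, 327 and 278 TPM in white. The photosystem genes were also lowest in brown replicate 2, and their part in these sums was not tested.

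Protochlorophyllide reductase (POR), the light-dependent enzyme that converts protochlorophyllide to chlorophyllide, rose. Its gene TRINITY_DN11809_c2_g6 had 94.7, 69.9 and 93.6 TPM in brown, against 22.8, 44.5 and 31.7 TPM in white. The groups were well separated, and white replicate 2 was the nearest white library. The log2 fold change was 1.39 ± 0.25 SE (adjusted p = 0.0223 with limma). It was 1.37 after quantile normalization and 1.21 after TMM scaling, where it did not pass (adjusted p = 0.0910 with limma). With 1 library left out the log2 fold change was between 1.16 and 1.63. The adjusted p then reached 0.0973, and it was above 0.05 without any 1 of the brown libraries and without white replicate 3.

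A second POR gene of the same assembly cluster did not share this difference. TRINITY_DN11809_c2_g7 had 36.9, 21.98 and 33.1 TPM in brown, against 19.5, 31.3 and 26.6 TPM in white (log2 fold change 0.23, adjusted p = 0.631 with limma). The ratio of the first gene to the second within each library was 2.57, 3.18 and 2.83 in brown, against 1.17, 1.42 and 1.19 in white. The lowest brown ratio was above the highest white one, without a test. Together the POR genes had 132, 91.9 and 127 TPM in brown, against 42.3, 75.8 and 58.3 TPM in white, also without overlap. Genes of a Trinity cluster share sequence, and reads can be divided between them, so each level alone is less certain than their sum.

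The cyclase that closes the fifth ring of chlorophyll was the most abundant enzyme gene of the pathways by the mean over all libraries. In every white library a zeaxanthin epoxidase gene was more abundant. Magnesium-protoporphyrin IX monomethyl ester cyclase had 280, 212 and 242 TPM in brown, against 159, 180 and 152 TPM in white (log2 fold change 0.57 ± 0.16 SE, adjusted p = 0.0866 with limma). Chlorophyllide a oxygenase, which makes the chlorophyll b precursor, had 87.4, 66.1 and 88.5 TPM in brown, against 38.0, 63.7 and 47.2 TPM in white (log2 fold change 0.71 ± 0.22 SE, adjusted p = 0.110 with limma). Neither passed the threshold, although brown libraries lay above white ones for both. Together with a shorter gene of the same description, the oxygenase had 105, 76.65 and 103 TPM in brown. In white this sum was 41.95, 79.0 and 55.7 TPM, with overlap.

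Magnesium chelatase, the enzyme at the branch point, has 3 subunits. ChlH, which binds the porphyrin, had 50.7, 24.4 and 39.3 TPM in brown, against 28.2, 16.5 and 26.1 TPM in white, with brown replicate 2 inside the white range. ChlI, an ATPase subunit, had 35.7, 29.7 and 31.7 TPM in brown, against 22.9, 36.1 and 28.4 TPM in white. ChlD, the other ATPase-type subunit, had 5.38, 4.56 and 4.89 TPM in brown, against 3.65, 3.82 and 3.99 TPM in white, and its groups did not overlap. The methyltransferase that acts next had 31.5, 26.2 and 33.3 TPM in brown, against 27.3, 50.1 and 30.9 TPM in white, where white replicate 2 was far above the rest.

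The last steps moved in no common direction. Divinyl chlorophyllide a 8-vinyl-reductase had 7.97, 7.27 and 6.45 TPM in brown, against 5.34, 6.36 and 4.51 TPM in white. Chlorophyll synthase, which attaches the tail, had 15.2, 11.1 and 14.4 TPM in brown, against 12.6, 10.3 and 13.6 TPM in white, with a log2 fold change of 0.14 that became -0.03 after TMM scaling. Geranylgeranyl diphosphate reductase, which makes the phytyl group for chlorophyll and tocopherol, had 34.3, 30.8 and 35.9 TPM in brown, against 51.4, 46.6 and 50.4 TPM in white. Every brown library was below every white one (log2 fold change -0.54 ± 0.13 SE, adjusted p = 0.0531 with limma), the only gene of the branch with that order.

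**Figure D2:**
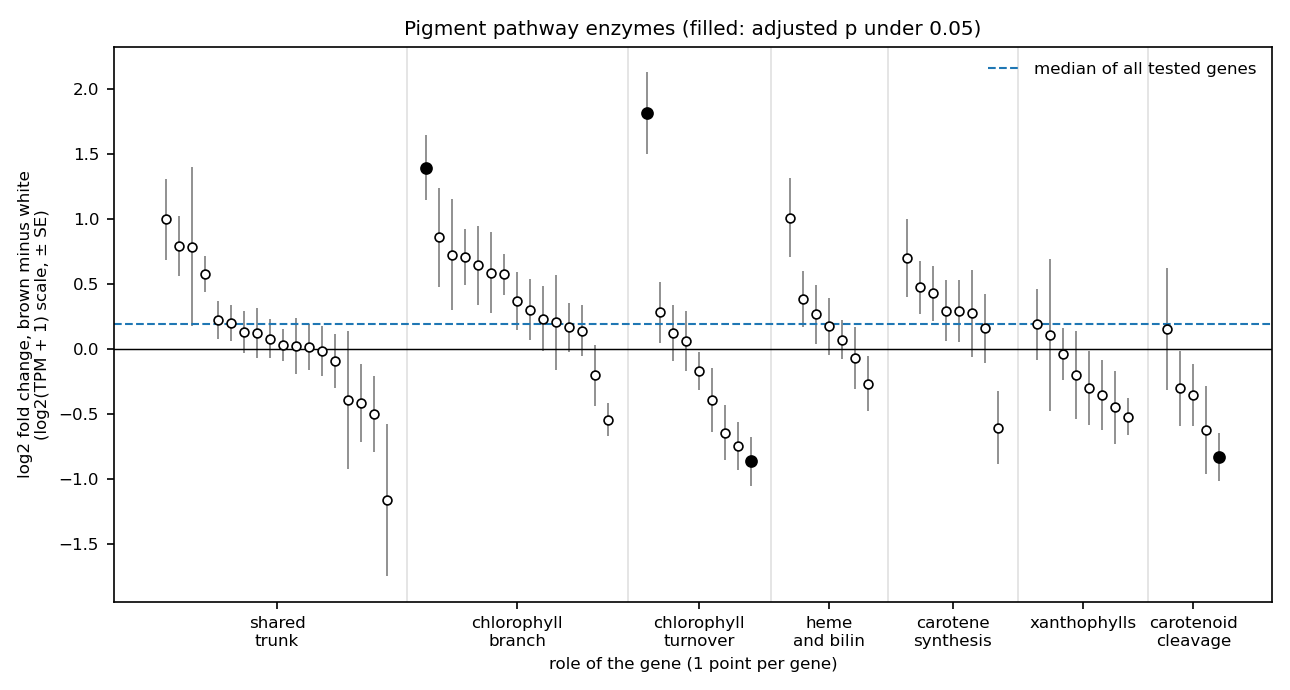
Log2 fold change (brown over white, log2(TPM + 1) scale) of each of the 70 tested enzyme genes by pathway role (points; vertical lines, ± SE; filled, adjusted p under 0.05; dashed line, median of all tested genes, 0.19). Values of the magnesium branch lie mostly above 0 (13 of 15, or 11 after TMM scaling) and those of the xanthophyll steps mostly below it (6 of 8, or 7 after TMM scaling). Over all tested genes, 24325 of 37829 values were above 0, or 20273 after TMM scaling.

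Chlorophyll turnover included a rise and a fall among 9 tested genes, and the median log2 fold change was -0.17. The 9 genes summed to 198, 129 and 167 TPM in brown, against 215, 185 and 199 TPM in white, and the groups overlapped. Chlorophyllase-2, an esterase that removes the phytol tail, fell to 12.8, 8.64 and 9.66 TPM in brown, against 20.4, 17.9 and 20.3 TPM in white. All brown libraries were below all white ones (log2 fold change -0.87 ± 0.19 SE, adjusted p = 0.0413 with limma). With 1 library left out the log2 fold change was between -1.01 and -0.75, and the adjusted p reached 0.155. It was above 0.05 without brown replicate 2 or 3 and without white replicate 1 or 3.

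Pheophorbide a oxygenase opens the chlorophyll ring, the step that ends its green colour. A low-abundance gene with this Swiss-Prot description, TRINITY_DN15962_c0_g1 (uncharacterized protein LOC109014593 in *Juglans regia*), rose to 5.08, 4.38 and 3.85 TPM in brown, against 0.47, 0.29 and 0.93 TPM in white. The groups were far apart (log2 fold change 1.81 ± 0.32 SE, adjusted p = 0.0200 with limma). The adjusted p stayed under 0.05 only without white replicate 2, and it was as high as 0.0774 without one of the other 5 libraries. The main pheophorbide a oxygenase gene was not called. It had 49.9, 38.1 and 43.0 TPM in brown, against 51.8, 44.5 and 50.7 TPM in white. Its log2 fold change was -0.17 ± 0.15 SE (adjusted p = 0.560 with limma).

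The chlorophyll b reductase NYC1 starts the breakdown of chlorophyll b and was present as 2 genes of 1 cluster. TRINITY_DN15453_c2_g3 had 16.2, 10.9 and 12.8 TPM in brown, against 24.5, 20.6 and 23.1 TPM in white (log2 fold change -0.75, adjusted p = 0.0622 with limma). TRINITY_DN15453_c2_g5 had 29.9, 17.9 and 22.5 TPM in brown, against 27.6, 19.7 and 19.3 TPM in white. The ratio of the g5 gene to the g3 gene was 1.84, 1.65 and 1.75 in brown, against 1.13, 0.953 and 0.835 in white, without overlap. Red chlorophyll catabolite reductase, which follows ring opening, had 44.8, 22.2 and 37.7 TPM in brown, against 45.7, 43.5 and 43.7 TPM in white for its leading gene. The reductase that returns 7-hydroxymethyl chlorophyll to chlorophyll a had 8.79, 6.20 and 6.71 TPM in brown, against 6.74, 6.58 and 6.19 TPM in white.

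**Figure D3:**
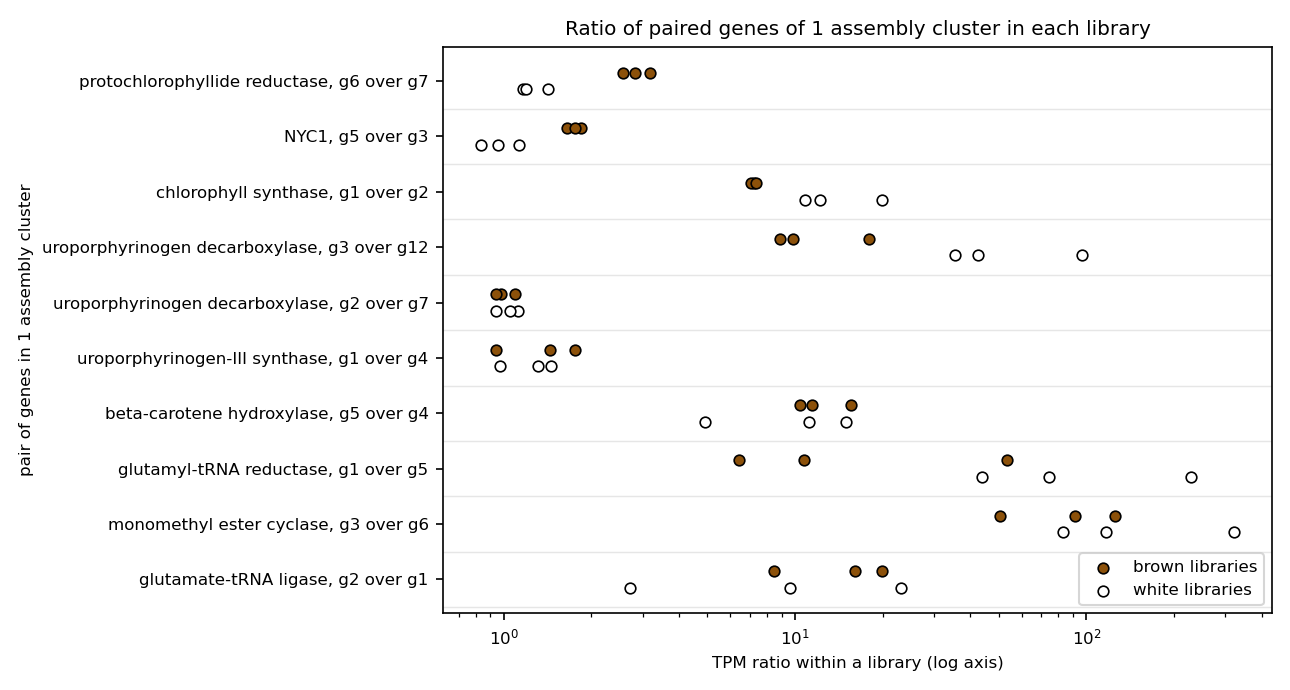
Within-library TPM ratio of pairs of member genes from 1 assembly cluster and 1 enzyme (points, libraries; log axis). Of 10 pairs, 4 had brown and white ratios that did not overlap (POR, NYC1, chlorophyll synthase and uroporphyrinogen decarboxylase) and 6 overlapped. No such share was computed for pairs over all genes. Among all tested single genes, 20.2% had brown above white without overlap and 8.85% had brown below.

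The other 2 pairs with separate ratios were set by a low second gene. For chlorophyll synthase the ratio of the main gene to the second was 7.22, 7.08 and 7.36 in brown, against 10.8, 19.8 and 12.2 in white, where the second gene was between 0.52 and 1.16 TPM. For uroporphyrinogen decarboxylase 1 the ratio was 9.82, 17.9 and 8.87 in brown, against 35.4, 96.4 and 42.5 in white, where the second gene was between 0.27 and 0.48 TPM. These pairs were compared without a test.

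On the iron side, 0 of 7 tested genes for heme, heme a and bilins passed the threshold. The median log2 fold change was 0.18 as deposited and 0.00 after TMM scaling. The leading ferrochelatase, which inserts iron, had 30.3, 27.1 and 29.5 TPM in brown, against 31.3, 23.6 and 28.2 TPM in white. A less abundant ferrochelatase-2-like gene had 9.23, 12.9 and 12.5 TPM in brown, against 7.11, 3.11 and 6.03 TPM in white, with separate groups (log2 fold change 1.01, adjusted p = 0.105 with limma). Heme oxygenase 1, which opens heme to biliverdin, had 26.6, 19.2 and 22.9 TPM in brown, against 23.2, 13.6 and 20.6 TPM in white.

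The end products of this side were also represented. Phytochromobilin:ferredoxin oxidoreductase, which makes the phytochrome chromophore, had 6.99, 6.97 and 5.21 TPM in brown, against 5.57, 8.28 and 6.52 TPM in white. Protoheme IX farnesyltransferase and COX15, which act in turn to make heme a for the respiratory chain, had log2 fold changes of -0.27 and 0.18 with overlapping groups.

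In carotene synthesis, from phytoene to the cyclized carotenes, 0 of 8 tested genes passed. The median log2 fold change was 0.29 (0.13 after TMM scaling, 0.16 after quantile normalization, 0.07 without white replicate 2), and 7 of 8 values were positive (6 after either scaling). The 8 genes summed to 106, 78.5 and 96.5 TPM in brown, against 96.6, 56.4 and 81.6 TPM in white, with overlap. Replicate 2 was the lowest library of both varieties.

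Phytoene synthase, which commits precursor to carotenoids, had 2 genes of like abundance. TRINITY_DN15331_c0_g3 had 11.6, 6.55 and 10.5 TPM in brown, against 10.2, 6.63 and 8.12 TPM in white. TRINITY_DN2848_c0_g1 had 12.4, 8.72 and 9.82 TPM in brown, against 7.04, 6.57 and 7.60 TPM in white, with separate groups (log2 fold change 0.48, adjusted p = 0.232 with limma). The desaturation and isomerization steps were of similar abundance. Phytoene desaturase had 20.3, 12.4 and 19.04 TPM in brown, against 20.4, 8.30 and 15.2 TPM in white. Zeta-carotene desaturase had 22.4, 17.5 and 19.8 TPM in brown, against 21.0, 11.3 and 17.2 TPM in white.

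Prolycopene isomerase, which makes all-trans-lycopene, had 16.5, 15.1 and 15.5 TPM in brown, against 14.4, 8.46 and 12.1 TPM in white. The zeta-carotene isomerase was the 1 gene of the group with a negative value, at 4.44, 3.70 and 5.41 TPM in brown, against 9.26, 5.14 and 8.17 TPM in white. Its log2 fold change was -0.61 ± 0.28 SE (adjusted p = 0.266 with limma). At the fork after lycopene, the beta cyclase had 14.8, 11.1 and 13.03 TPM in brown, against 12.9, 7.42 and 11.5 TPM in white. The epsilon cyclase, which directs lycopene to lutein, was lower, at 4.10, 3.43 and 3.40 TPM in brown, against 1.43, 2.58 and 1.68 TPM in white. The groups of the epsilon cyclase were separate, but its log2 fold change of 0.70 did not pass (adjusted p = 0.235 with limma).

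The xanthophyll steps, which add oxygen to carotenes, lay on the other side of 0. None of 8 tested genes passed, 6 of 8 values were negative (7 after either scaling), and the median log2 fold change was -0.25 (-0.40 after TMM scaling, -0.46 after quantile normalization). Without brown replicate 2 the median was -0.02. The genes summed to 324, 228 and 280 TPM in brown (278 ± 47.8 SD, n = 3), against 393, 333 and 384 TPM in white (370 ± 32.4 SD, n = 3), without overlap.

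Zeaxanthin epoxidase, which turns zeaxanthin into violaxanthin, made up most of this sum through 2 genes. Without the more abundant of them the sums overlapped, at 172, 90.2 and 139 TPM in brown, against 208, 105 and 174 TPM in white. TRINITY_DN13956_c0_g1 had 152, 138 and 141 TPM in brown, against 185, 227 and 210 TPM in white, with separate groups (log2 fold change -0.52 ± 0.14 SE, adjusted p = 0.0789 with limma). TRINITY_DN13320_c0_g1 had 65.1, 34.2 and 48.6 TPM in brown, against 84.4, 48.0 and 69.2 TPM in white, with overlap. The de-epoxidase that runs the reverse reaction in bright light was far less abundant, at 3.94, 3.05 and 2.94 TPM in brown, against 2.60, 3.07 and 2.63 TPM in white.

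Beta-carotene hydroxylase 2, which makes zeaxanthin, was the most variable enzyme of the group within each variety. It had 50.8, 21.3 and 40.4 TPM in brown, against 58.5, 12.1 and 48.0 TPM in white, and replicate 2 was lowest in both. LUTEIN DEFICIENT 5, the beta-ring hydroxylase of the lutein route, had 27.5, 15.3 and 22.97 TPM in brown, against 34.7, 20.1 and 29.8 TPM in white. Carotene epsilon-monooxygenase, which completes lutein, had 8.46, 8.16 and 8.44 TPM in brown, against 8.92, 10.02 and 7.09 TPM in white. A gene described as capsanthin/capsorubin synthase-like, an enzyme named from pepper, had 12.6, 6.34 and 11.5 TPM in brown, against 14.8, 9.62 and 12.8 TPM in white.

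**Figure D4:**
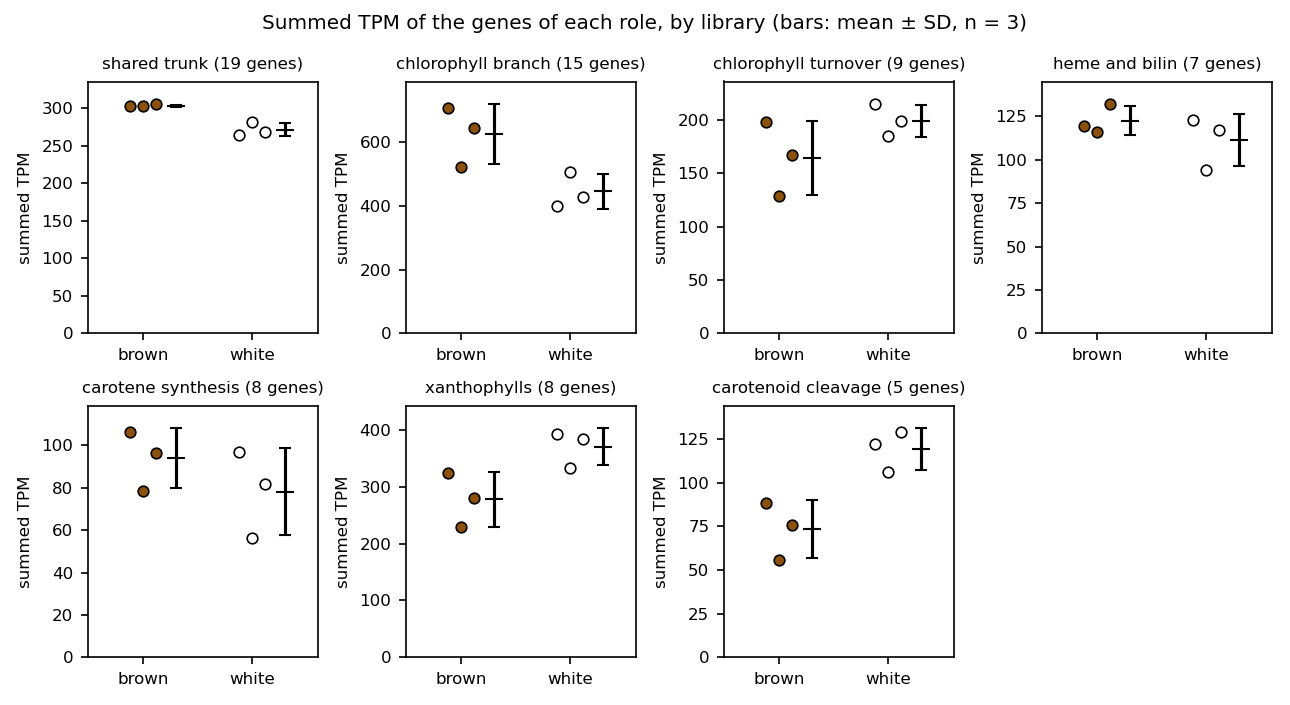
Summed TPM of the members of each pathway role in each library (points, brown left, white right; bars, mean ± SD, n = 3; axes start at 0). On TPM as deposited, brown libraries lie above white ones for the shared trunk and the chlorophyll branch. They lie below them for xanthophylls and carotenoid cleavage. The trunk sum includes a cytosolic glutamate-tRNA ligase, without which its groups overlap. The sums of the chlorophyll branch, xanthophylls and carotenoid cleavage each overlap without the most abundant gene of the role.

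Carotenoid cleavage had the summed level farthest from equality among the roles, with a ratio of mean TPM in brown to white of 0.615. The 5 genes summed to 88.7, 55.7 and 75.7 TPM in brown (73.4 ± 16.7 SD, n = 3), against 122, 106 and 129 TPM in white (119 ± 11.8 SD, n = 3), without overlap. This rested on 1 gene, since the other 4 summed to 22.2, 12.5 and 21.8 TPM in brown, against 22.2, 21.5 and 25.1 TPM in white, with overlap. One of 5 tested genes fell and 0 rose, and the median log2 fold change was -0.36. In 3 of the 5, every brown library was below every white one, an order that 8.85% of all tested genes showed.

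The gene that fell encodes carotenoid 9,10(9',10')-cleavage dioxygenase 1 (CCD1), which cuts carotenoids and apocarotenoids into volatile ketones such as beta-ionone. It had 66.5, 43.2 and 53.8 TPM in brown, against 100.2, 84.9 and 104 TPM in white. All brown libraries were below all white ones (log2 fold change -0.83 ± 0.18 SE, adjusted p = 0.0438 with limma). With 1 library left out the log2 fold change was between -0.98 and -0.67, and the adjusted p reached 0.1499. It was above 0.05 without brown replicate 2 or 3 and without white replicate 1 or 3.

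Genes of the strigolactone route were lower in abundance. Beta-carotene isomerase D27, its first enzyme, had 13.8, 7.99 and 14.1 TPM in brown, against 15.2, 13.6 and 16.6 TPM in white for its leading gene. Carotenoid cleavage dioxygenase 7, the next enzyme, had 0.76, 1.90 and 1.81 TPM in brown, against 2.68, 2.30 and 3.31 TPM in white. Carotenoid cleavage dioxygenase 4, which cleaves carotenoids in plastids, had 1.16, 1.26 and 1.29 TPM in brown, against 2.03, 1.82 and 1.45 TPM in white. The groups were separate for both dioxygenases, with adjusted p = 0.341 and adjusted p = 0.596 with limma.

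Of the 96 members described as other proteins, 88 were tested, and 1 rose and 3 fell. The largest subgroup was 33 genes assigned to COX15 in the pathway text, most of them described as MYB transcription factors, a family with no enzyme role in heme synthesis. A MYB6-like repressor, TRINITY_DN12690_c0_g2, fell to 31.8, 21.2 and 23.5 TPM in brown, against 51.9, 74.8 and 58.3 TPM in white (log2 fold change -1.25 ± 0.20 SE, adjusted p = 0.0165 with limma). It did not pass without brown replicate 2 or 3 or white replicate 3, where the adjusted p reached 0.0793. A myb-related protein 308-like gene, TRINITY_DN12199_c1_g13, rose to 7.97, 7.43 and 9.11 TPM in brown, against 3.29, 3.25 and 2.58 TPM in white (log2 fold change 1.18 ± 0.23 SE, adjusted p = 0.0298 with limma). It passed only without white replicate 2 among the fits with 1 library left out, and the adjusted p reached 0.144.

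The 2 remaining calls were an F-box protein and an unnamed protein. The F-box At2g02240-like gene, which carries the beta-ring hydroxylase assignment, fell to 17.0, 13.8 and 11.3 TPM in brown, against 40.2, 23.5 and 31.5 TPM in white (log2 fold change -1.11, adjusted p = 0.0383 with limma). A hypothetical protein with the geranylgeranyl reductase assignment, TRINITY_DN12414_c0_g2, fell to 0.83, 4.15 and 1.33 TPM in brown, against 8.84, 22.7 and 10.4 TPM in white (log2 fold change -2.31, adjusted p = 0.0379 with limma). Each passed in 1 of the 6 fits with 1 library left out, and the adjusted p reached 0.141 for the F-box gene and 0.132 for the hypothetical protein. Neither description names a pigment enzyme.

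Genes around the pathways were taken from lists of descriptions. These lists were chosen with earlier results of these data known, so their shares of calls are descriptive only. Of 20 regulators of chloroplast and carotenoid development, 0 rose and 4 fell (20.0%, against 2.17% of all tested genes). Their median log2 fold change was -0.18, against 0.19 over all genes. Of the 20 values, 7 were positive and 13 negative. HY5 is known from *Arabidopsis* as a light-signalling factor that activates chlorophyll and carotenoid genes. Of 3 genes described as HY5-like, 2 fell. Swiss-Prot describes TRINITY_DN11845_c0_g1 as HY5-like, and TRINITY_DN11687_c0_g1 and TRINITY_DN11687_c0_g3 as HY5. TRINITY_DN11687_c0_g1 had 15.2, 9.57 and 12.4 TPM in brown, against 38.1, 36.0 and 37.2 TPM in white (log2 fold change -1.53 ± 0.18 SE, adjusted p = 0.00592 with limma). TRINITY_DN11845_c0_g1 had 9.45, 4.20 and 7.20 TPM in brown, against 25.6, 21.7 and 21.4 TPM in white (log2 fold change -1.64 ± 0.27 SE, adjusted p = 0.0168 with limma). The groups were far apart for both. A low HY5-like gene of the first gene's cluster, TRINITY_DN11687_c0_g3, had 2.46, 1.73 and 1.96 TPM in brown, against 5.42, 2.90 and 4.17 TPM in white, and did not pass (log2 fold change -0.74, adjusted p = 0.229 with limma). The first of the genes that fell passed in all 6 fits with 1 library left out, and the second did not without brown replicate 3 or white replicate 1 or 3, where its adjusted p reached 0.0663.

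One of 2 genes with the Swiss-Prot description ORANGE-GREEN also fell. ORANGE proteins are known from melon, cauliflower and *Arabidopsis* to stabilize phytoene synthase. The gene that fell, TRINITY_DN12458_c1_g3, had 23.5, 19.6 and 24.7 TPM in brown, against 51.1, 63.2 and 49.2 TPM in white, without overlap (log2 fold change -1.23 ± 0.16 SE, adjusted p = 0.00748 with limma), and it passed in all 6 fits with 1 library left out. The other gene of its cluster had 54.7, 42.3 and 45.9 TPM in brown, against 47.8, 60.9 and 49.8 TPM in white (log2 fold change -0.15, adjusted p = 0.641 with limma), and reads can be divided between them. A pair of ORANGE-LIKE genes had log2 fold changes of 0.28 and 0.05 and did not pass. The fourth regulator that fell, a PIF3-like gene outside the naming rule and chosen after its values were seen, had 3.07, 0.88 and 2.07 TPM in brown, against 16.4, 6.47 and 12.7 TPM in white (log2 fold change -2.08, adjusted p = 0.0329 with limma). Its Swiss-Prot description is transcription factor APG. PIF3 is known from *Arabidopsis* as a repressor of chlorophyll synthesis in the dark. More abundant PIF3-like genes did not pass. TRINITY_DN11773_c0_g3 had a log2 fold change of -0.15 (adjusted p = 0.603 with limma) and TRINITY_DN14805_c2_g5 of 0.26 (adjusted p = 0.531 with limma). The PIF3-like gene that fell did not pass without brown replicate 2 or 3 or white replicate 1 or 3, where the adjusted p reached 0.114, or with a pseudocount of 0.1 (0.0513).

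**Figure D5:**
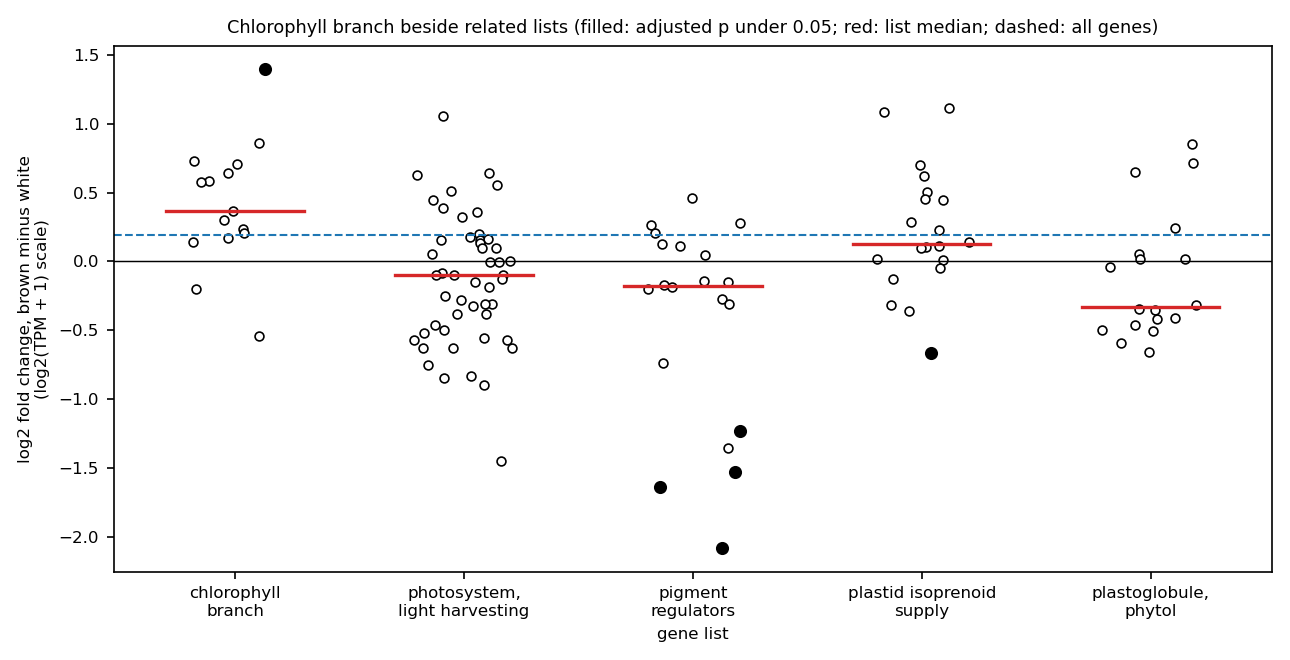
Log2 fold change (brown over white, log2(TPM + 1) scale) of tested genes in the chlorophyll branch and in 4 related lists, with genes past an adjusted p of 0.05 filled, red lines at list medians and a dashed line at the median of all genes (0.19). The 4 filled regulators lie below -1, whereas the photosystem genes have no filled point and a median of -0.10.

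Upstream of both pathways, 20 of 22 genes for plastid isoprenoid supply were tested, and 0 rose and 1 fell. The gene that fell encodes geranylgeranyl pyrophosphate synthase, which makes the shared precursor. It had 55.4, 44.1 and 52.4 TPM in brown, against 86.8, 76.6 and 78.3 TPM in white (log2 fold change -0.66 ± 0.14 SE, adjusted p = 0.0363 with limma), and it passed only without white replicate 2, with an adjusted p of up to 0.127 otherwise; without the mean-variance trend it was 0.120. Brown was thus below white without overlap for this synthase gene and for the leading gene of the reductase that uses its product for chlorophyll. That reductase gene did not pass. The other tested genes with the synthase assignment had log2 fold changes from -0.36 to 1.115. Among these, TRINITY_DN16136_c0_g1 had every brown library above every white one. The other gene described as the reductase had overlapping groups (log2 fold change 0.20). Of 18 plastoglobule and phytol genes, which store and recycle lipids and pigments, 0 passed in either direction, and the median log2 fold change was -0.33, or 0.02 without brown replicate 2.

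Markers of other tissues were also compared. Of 4 genes matching kernel storage proteins, 1 rose and 2 fell, and they summed to 22.2, 31.5 and 37.7 TPM in brown, against 54.8, 38.9 and 42.7 TPM in white. No gene matched 2S albumin, vicilin or legumin. The basic 7S globulin-like gene that rose was listed at 0 TPM in all white libraries, and the genes that fell were another basic 7S globulin-like gene and an oleosin 1-like gene. A more abundant oleosin 1-like gene did not pass (log2 fold change -1.12, adjusted p = 0.0706 with limma). It had 14.1, 8.88 and 18.3 TPM in brown, against 38.7, 22.9 and 30.3 TPM in white. Of 15 secondary wall genes 1 rose (6.67%, against 3.83% of all tested genes) and 0 fell. The gene that rose was a low cellulose synthase A 7 gene with 3.56, 4.76 and 3.06 TPM in brown, against 0.37, 0.00 and 0.24 TPM in white. Another cellulose synthase A 7 gene of its cluster did not pass (log2 fold change 0.30). The list had a median log2 fold change of 0.04, with 8 values positive and 7 negative. Epidermal and cuticle genes had 0 of 10 past the threshold in either direction and summed to 114, 140 and 138 TPM in brown, against 99.6, 56.2 and 100.1 TPM in white, without overlap. Most of that sum was the 3-ketoacyl-CoA synthase 10 gene, with 80.9, 85.6 and 94.5 TPM in brown, against 44.6, 15.5 and 37.6 TPM in white. The other epidermal genes overlapped in sum, 7 of the 10 tested values were negative, and the median log2 fold change was -0.18. None of the 4 marker genes called here passed in all 6 fits with 1 library left out. The part of these tissues in the pigment results was not tested.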

How the data were processed

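Relative abundance was deposited by the authors as TPM for each assembled gene in 6 husk libraries. Per the submitters' processing notes, cutadapt and FastQC were used on the reads, with no versions stated. The gene identifiers that the authors deposited name Trinity, and the quantifier is not given in the sources used here. Since TPM does not carry read depth, depth is unknown for every library and counting error cannot be stated.

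The whole table was fitted on log2(TPM + 1) with limma 3.58.1 in R 4.3.3 (mean-variance trend, all 6 libraries, no covariates). A gene was tested where 3 or more libraries reached 1 TPM, and the Benjamini-Hochberg adjustment ran over all 37829 such genes. The fit was tested on simulated data with independent normal noise of the variance given by the trend. No simulated library stood apart as white replicate 2 did, so that test does not measure how stable the calls here are. Alternative settings were tried beside leaving out each library: other pseudocounts (0.1 and 0.5), the low-value filter dropped or raised to 5 TPM, quantile normalization, division by TMM factors (trimmed means of log ratios, computed on TPM by a written-out version of that method), a fit without the trend, array weights, and a block for the replicate number.

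Named genes were members past the threshold, the most abundant gene of each enzyme with a mean of at least 5 TPM, and the 3 most abundant genes past the threshold in each related list. Other genes of an enzyme are given beside these and were chosen after their values were seen. Roles and lists are text patterns on the descriptions. The members and lists were chosen with earlier results of these data known. Assembled genes can be alleles or fragments, and 26 members are shorter than 500 bases.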

Additional observations from a re-analysis of the deposited data

How the results depend on the processing

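Member counts moved with the settings. Against 3 higher and 5 lower, a filter of 5 TPM gave 7 and 8, array weights 6 and 3. The lower count was 2 with a pseudocount of 0.1, 9 with TMM factors, 9 with quantile normalization and 1 without the trend. Leaving out 1 library gave 0 to 6 higher and 0 to 6 lower. Over all genes, 1450 were higher and 819 lower, and 410 to 1255 and 259 to 1013 without 1 library. Quantile normalization gave 1259 higher and 1275 lower and TMM factors 1356 and 1153, so the share of calls that were higher was 63.9% as deposited, 49.7% after quantile normalization and 54.0% after TMM. Of the 8 member calls, TMM factors ended POR and the hypothetical protein, quantile normalization the myb-related 308-like gene, and array weights CCD1 and the hypothetical protein. A pseudocount of 0.1 ended CCD1, the F-box gene and the hypothetical protein. Without the trend the pheophorbide a oxygenase, MYB6-like and myb-related 308-like genes passed and the other 5 did not, and a filter of 5 TPM left the oxygenase gene untested. Causes were not tested.

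With the replicate number as a block, 735 genes were higher and 490 lower, and 2 members were higher and 3 lower. Of the 8 member calls, CCD1, the F-box gene and the hypothetical protein passed with the block, and POR (adjusted p = 0.0617 with limma), the pheophorbide a oxygenase gene (0.0629), chlorophyllase-2 (0.0645), MYB6-like (0.0543) and myb-related 308-like (0.0815) did not. Deviations of same-numbered libraries from their group means correlated at 0.057, 0.056 and 0.011, too weakly to establish pairing, although each library correlated best with its own number.

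Signs turned in named members that did not pass, in log2 fold change. With TMM factors the values were -0.0435 for mitochondrial protoporphyrinogen oxidase, -0.0267 for chlorophyll synthase, -0.15 for aminolevulinic acid dehydratase, -0.15 for uroporphyrinogen decarboxylase, -0.0391 for 7-hydroxymethyl chlorophyll a reductase, -0.0102 for ChlI, -0.11 for ferrochelatase, -0.0644 for beta-carotene hydroxylase 2, -0.0025 for phytoene synthase and -0.11 for NYC1. With quantile normalization they were -0.00042 for chlorophyll synthase, -0.0056 for the dehydratase, -0.0780 for uroporphyrinogen decarboxylase, -0.0849 for the 7-hydroxymethyl reductase, -0.0355 for ferrochelatase, -0.0282 for phytoene synthase and -0.0428 for NYC1. Array weights gave -0.0834 for beta-carotene hydroxylase 2, -0.0834 for NYC1 and 0.11 for glutamate-1-semialdehyde aminomutase. Without 1 library the ranges were -0.0354 to 0.0726 for the dehydratase, -0.19 to 0.21 for uroporphyrinogen decarboxylase, -0.0095 to 0.21 for the 7-hydroxymethyl reductase, -0.19 to 0.0625 for phytochromobilin oxidoreductase, -0.0356 to 0.16 for ferrochelatase, -0.57 to 0.52 for beta-carotene hydroxylase 2, -0.0185 to 0.29 for COX15, -0.16 to 0.0621 for carotene epsilon-monooxygenase, -0.37 to 0.0524 for the magnesium protoporphyrin methyltransferase, -0.12 to 0.23 for NYC1, -0.19 to 0.17 for the aminomutase and -0.0598 to 0.54 for phytoene desaturase. With 3 libraries a variety and white replicate 2 apart, small differences could not be resolved.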

Other observations

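Genes that belong to the same biology by description but carry no KEGG assignment to either pathway were also present, and 19 of them were tested. They were chosen after values of these data were known. Ferritin-3, a plastid protein that stores iron, was the most abundant of them. The gene TRINITY_DN11941_c0_g2 rose to 287, 282 and 256 TPM in brown, against 114, 158 and 132 TPM in white (log2 fold change 1.03 ± 0.16 SE, adjusted p = 0.0141 with limma). It did not pass without any 1 of the brown libraries or without white replicate 3, where the adjusted p reached 0.0700, nor after TMM scaling (adjusted p = 0.0930 with limma). Another ferritin-3 gene of the same cluster had 80.7, 67.6 and 77.8 TPM in brown, against 60.5, 49.0 and 60.6 TPM in white, and the last had 28.2, 49.0 and 35.1 TPM in brown, against 17.7, 78.0 and 34.8 TPM in white.

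NEOXANTHIN-DEFICIENT 1, known from tomato as a gene needed for neoxanthin, fell to 3.51, 2.37 and 3.10 TPM in brown, against 11.3, 8.03 and 9.72 TPM in white (log2 fold change -1.42 ± 0.25 SE, adjusted p = 0.0200 with limma). It did not pass without brown replicate 2 or 3 or white replicate 1 or 3, where the adjusted p reached 0.0878. STAY-GREEN, which removes magnesium from chlorophyll, had 21.1, 8.12 and 12.95 TPM in brown, against 35.4, 8.05 and 27.4 TPM in white, with overlap and replicate 2 lowest in both varieties. A pheophytinase, which removes phytol from pheophytin, had 23.7, 19.9 and 21.0 TPM in brown, against 20.1, 23.6 and 20.8 TPM in white. Of the 12 genes that the member rule left out, limma called 0, and an unadjusted p under 0.05 was given to 0.

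Several members described as other proteins lay close to the threshold, and these too were chosen after their values were seen. A xanthoxin dehydrogenase-like gene had 56.8, 61.2 and 62.2 TPM in brown, against 40.2, 39.7 and 45.0 TPM in white (adjusted p = 0.0548 with limma). Its description repeats its assignment in the carotenoid pathway. A beta-amyrin 28-oxidase-like gene, described after an enzyme of triterpene synthesis, had 40.5, 30.8 and 37.6 TPM in brown, against 20.5, 9.05 and 16.8 TPM in white (adjusted p = 0.0501 with limma). An uncharacterized gene assigned to zeaxanthin epoxidase, TRINITY_DN3447_c0_g1, had 3.90, 2.37 and 4.01 TPM in brown, against 9.22, 7.29 and 9.22 TPM in white (log2 fold change -1.13, adjusted p = 0.0501 with limma). The groups were separate for all 3 genes, with brown above white for the first and second and below it for the last.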
